A study of Mus musculus with 19 samples.

Results

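The mRNA bound to ribosomes in D1 and in D2 spiny projection neurons was compared in the striatum of mice aged 2 years. The comparison takes 8 of the 19 samples of the series, 4 libraries of each kind of neuron, chosen by the age and cell type in their labels. D1 libraries came from female mice of the strain Drd1::EGFP-L10a and D2 libraries from female mice of the strain Drd2::EGFP-L10a. Both strains are given as being on C56BL/6J, spelled as in the labels, and no other allele, treatment or agent is named for either. A further 8 libraries, 4 of each kind from the same strains at 42 days, serve here to ask which differences were also present at the younger age. The remaining 3 samples, from a fibroblast line, were not analysed here. Libraries of 1 group are described as biological replicates, and the labels tie them to no litter or day.

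The assay was translating ribosome affinity purification (TRAP), in which ribosomes that carry a tagged L10a protein are captured together with the mRNA on them. The tag, an enhanced green fluorescent protein, is expressed under the dopamine receptor gene in the strain's name, so a library represents whichever striatal cells use that gene. Spiny projection neurons (SPNs) are the GABA-releasing output neurons of the striatum. D1 neurons project mainly to the substantia nigra and the internal pallidum, make substance P and dynorphin, and raise cyclic AMP in response to dopamine. D2 neurons project mainly to the external pallidum, make enkephalin, carry the adenosine receptor Adora2a, and lower cyclic AMP in response to dopamine. Both share DARPP-32, an inhibitor of protein phosphatase 1 through which dopamine signals act. Receptors such as Drd2 are also made by the cholinergic interneurons of the striatum.

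Levels are given in TPM, the share of a transcript among all transcripts after adjustment for its length. A fold change is the log2 ratio of D1 over D2 fitted to counts, with its standard error (SE), so a positive value means higher in D1. A gene is called where the Benjamini-Hochberg adjusted p of edgeR's quasi-likelihood test over all tested genes is under 0.05. Total counts were 34844856 to 50379814 in D1 and 27484029 to 70902985 in D2.

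The libraries of the 2 kinds differed as wholes at this age. Genes with a count numbered 10364 to 13694 in D1 and 13838 to 14766 in D2. The mean fragment length was 151 to 164 bases in D1 against 170.3 to 189 in D2. Gm42418, a transcript that overlaps ribosomal RNA sequence, took 4.45 to 5.41% of the counts in D1 against 10.7 to 14.4% in D2, and the mean GC content weighted by counts was 47.3 to 47.8% against 48.4 to 49.1%. None of these 4 ranges overlapped (exact two-sided permutation test, p = 0.0286 each, the smallest that 4 against 4 allows; adjusted p = 0.0357 over 5 measures). The fifth measure, the mean transcript length weighted by counts, was 3835 to 4062 bases in D1 against 3781 to 3925 in D2 (exact p = 0.2). At 42 days the ranges of genes with a count, Gm42418 and GC content overlapped between kinds, and the fragment lengths were 171 to 174 bases in D1 and 176 to 195 in D2. D1 libraries also resembled one another less, with a mean correlation to their own group of 0.778 to 0.832 against 0.907 to 0.923. The second part of the library index is one sequence in all D1 and another in all D2 libraries of this age, so index and kind cannot be told apart. The part that these measures have in the differences below was not tested, except where a value after removal of the GC and length trend is given.

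**Figure D1:**
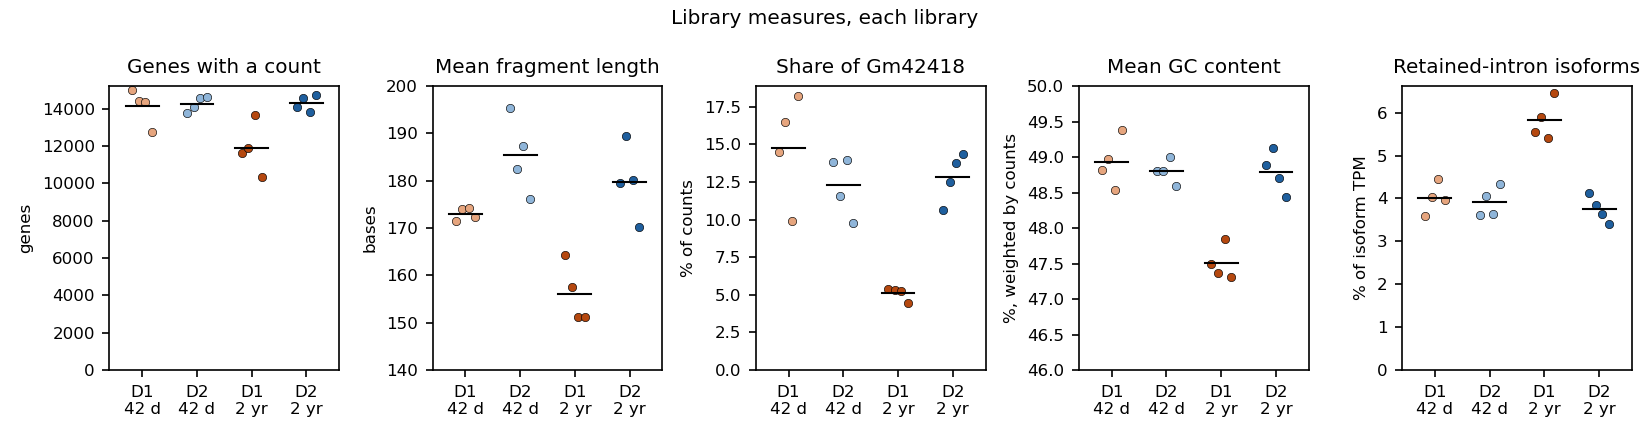
Library measures by group, 1 point per library and a line at the mean: genes with a count, mean fragment length in bases, share of counts in Gm42418 in percent, mean GC content in percent, and share of isoform TPM in retained-intron isoforms in percent; the fragment length and GC axes do not start at 0. The 4 D1 libraries at 2 years lie below the 4 D2 libraries of that age in the first 4 panels and above them in the last.

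Of 12410 tested genes, 354 differed between D1 and D2 at 2 years (2.85%), with 220 higher in D1 (1.77%) and 134 lower (1.08%). An unadjusted p under 0.05 was reached by 2128 genes. The median log2 fold change was 1.47 for the called genes that were higher and -2.02 for those that were lower, against -0.03 over all tested genes. In 340 of the 354 the 4 TPM values of each kind did not overlap, which was true of 15.7% of all tested genes. Genes named by rule were chosen in part for this lack of overlap, which is then a description and no finding. Among the called genes lower in D1, 15 had no count in any D1 library, and 1 of those higher had none in D2. The median GC content was 46.1% for calls higher in D1, 56.1% for calls lower in D1 and 49.8% for all tested genes. The share of calls that were higher in D1 was 62.1% as tested, 76.7% once each library's trend over GC and transcript length had been removed (138 higher, 42 lower), and 35.5 to 35.8% in tests on log2 TPM (244 higher and 444 lower with a pseudocount of 1, 226 and 405 with 0.1). Without D2 replicate 3 only 91 genes were called and without D2 replicate 2 only 99, while the count was 164 and 139 without D2 replicates 1 and 4 and 199 and 178 without D1 replicates 1 and 2.

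The cell types in the labels were checked first against their markers. Of 8 listed D1 markers 6 were higher in D1 and none was lower, with a median log2 fold change of 3.33. The D2 markers mirrored this, with 5 of 7 lower in D1, none higher and a median of -4.59. Over all tested genes 1.77% were called higher in D1 and 1.08% lower. The summed level of the D1 markers was 4694 to 7619 TPM in D1 and 420.1 to 678 in D2, and that of the D2 markers was 115 to 555 against 5561 to 11629.5. The markers went with the labels in each of the 8 libraries. In material of this kind, fewer cells of a type and less of an RNA per cell cannot be told apart.

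On the D1 side, Drd1 itself (ENSMUSG00000021478, chr13:54051183-54055705, minus strand in GRCm38) stood at 319.8, 378, 366 and 609.7 TPM in the D1 libraries and 62.4, 53.4, 91.8 and 62.7 TPM in the D2 libraries (log2 fold change 2.76, SE 0.32, adjusted p = 0.00225). All 4 D1 values lay above all D2 values, with D1 replicate 4 highest. Eya1 (ENSMUSG00000025932, chr1:14168954-14310235, minus strand), a transcriptional coactivator and phosphatase, stood at 1003, 957, 868 and 759.6 TPM in D1 and 9.59, 5.66, 2.3 and 7.33 in D2 (log2 fold change 7.23, SE 0.42, adjusted p = 1.30e-05). Among called genes with a name and with counts in both kinds it had the highest fold change, and the groups lay far apart. Tac1, the precursor of substance P, was at 3122, 2959.8, 4459 and 5677 TPM in D1 and 557, 330.3, 465 and 303 in D2 (log2 fold change 3.50, SE 0.32, adjusted p = 0.000564). Pdyn, the precursor of dynorphin, was at 93.5, 198, 231 and 257 TPM in D1 and 5.13, 4.59, 4.08 and 3.74 in D2 (log2 fold change 5.61, SE 0.42, adjusted p = 0.000156). Both peptide precursors separated the kinds without overlap. D1 replicate 1 was the lowest D1 library for Pdyn and still far above any D2 library.

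Transcription factors and other D1 genes followed the same order. Ebf1, a factor needed for D1 neurons to mature, stood at 26.9, 30.8, 32.1 and 86.1 TPM in D1 and 1.3, 3.58, 0.65 and 1.93 in D2 (log2 fold change 4.88, SE 0.65, adjusted p = 0.00415). Slc35d3, a protein required for D1 receptor traffic, was at 63.8, 66.2, 118 and 152 TPM against 20.4, 13.03, 8.44 and 7.24 (log2 fold change 3.17, SE 0.49, adjusted p = 0.00829). Dlk1, a Notch-related membrane protein, was at 65.8, 67.4, 27.3 and 28.4 TPM against 8.94, 0.37, 1.76 and 0 (log2 fold change 5.78, SE 1.09, adjusted p = 0.0199). In all 3 the D1 values lay above every D2 value, and 1 D2 library had no Dlk1 count. The transcription factor Isl1 had 134, 58.5, 62.9 and 42.7 TPM in D1 and 14.6, 10.2, 0.91 and 19.1 in D2 and missed the threshold (log2 fold change 2.73, SE 0.78, adjusted p = 0.0844). The muscarinic receptor Chrm4, which opposes dopamine signals in D1 neurons, had 26.6, 45.8, 97.2 and 34.3 TPM in D1 and 7.63, 8.6, 24.9 and 14.6 in D2 and also missed it (log2 fold change 1.93, SE 0.52, adjusted p = 0.0716). DESeq2 called both, with adjusted p = 0.00377 for Isl1 and 0.00342 for Chrm4. Without each library in turn the D1-side calls held except for Dlk1, which was lost without D1 replicate 2 and D2 replicates 2 and 3 (adjusted p = 0.096 at most).

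On the D2 side, Drd2 (ENSMUSG00000032259, chr9:49340627-49408177, plus strand) was at 9.43, 35.4, 48.5 and 2.14 TPM in the D1 libraries and 5717, 3539.6, 2395 and 2465 TPM in the D2 libraries (log2 fold change -7.14, SE 0.87, adjusted p = 0.00322). Penk (ENSMUSG00000045573, chr4:4133531-4138819, minus strand), the enkephalin precursor, was at 88.96, 108, 239 and 509 TPM in D1 and 5039, 3733, 4475 and 2329.9 in D2 (log2 fold change -3.81, SE 0.59, adjusted p = 0.00815). Neither gene's groups overlapped, and D1 replicate 4 had the most Penk and the least Drd2 of the D1 libraries. Adora2a, the adenosine receptor of these neurons, was at 3.68, 0, 0.3 and 37.6 TPM in D1 and 544, 629, 533 and 454 in D2 and missed the threshold (log2 fold change -5.43, SE 1.57, adjusted p = 0.0878). D1 replicate 4 alone carried most of the Adora2a of its group, and without that library the gene was called (log2 fold change -8.67, adjusted p = 0.00775). The orphan receptor Gpr6 was at 3.03, 10.7, 7.97 and 0 TPM in D1 and 147, 120.2, 136 and 142 in D2 (log2 fold change -4.59, SE 1.10, adjusted p = 0.0518). It too was called without D1 replicate 4, at a log2 fold change of -4.18 and adjusted p = 0.00267.

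Receptors for several transmitters were among the D2-side genes. Grik3, a kainate receptor subunit, had 1.87, 0.88, 4.24 and 0.01 TPM in D1 and 101, 108, 92.3 and 78.7 in D2 (log2 fold change -5.75, SE 1.07, adjusted p = 0.0181). Oprd1, the delta opioid receptor that enkephalin acts on, had a count in 1 D1 library (0, 0, 0.91 and 0 TPM) and 73.5, 39.1, 50.2 and 43.1 TPM in D2 (log2 fold change -7.79, SE 1.62, adjusted p = 0.0308). Hrh3, an inhibitory histamine receptor, had 65.1, 34.4, 49.99 and 12.3 TPM in D1 and 292, 312, 348 and 293 in D2 (log2 fold change -3.26, SE 0.55, adjusted p = 0.0116). P2ry1, a receptor for ADP, had 4.5, 5.99, 11.8 and 3.64 TPM in D1 and 92.9, 51.3, 53.8 and 46.2 in D2 (log2 fold change -3.17, SE 0.45, adjusted p = 0.00585). In each of these 4 receptors every D2 value exceeded every D1 value. Chrm3, a muscarinic receptor of the excitatory kind, had no count in D1 and 4.13, 7.55, 9.94 and 5.08 TPM in D2, which makes it at least 309-fold lower in D1 against a floor of 3 counts over the group, a bound that covers counting error only (adjusted p = 0.043). The zinc finger factor Sp9, needed to form D2 neurons, had 6.48, 0.19, 0.61 and 1.91 TPM in D1 and 32.3, 58, 39.5 and 64.8 in D2 (log2 fold change -4.30, SE 0.93, adjusted p = 0.0365), and the receptor phosphatase Ptprm had 1.84, 8.09, 12.2 and 4.21 and 48.8, 33.2, 30.6 and 27 (log2 fold change -2.33, SE 0.54, adjusted p = 0.0462). Sp9 shares exon sequence on the opposite strand with Cir1, which reached 147 TPM. Drd2, Penk, Hrh3 and P2ry1 kept their calls without each library in turn, whereas Grik3, Sp9, Ptprm, Oprd1 and Chrm3 lost theirs without 4 to 7 of the 8 (adjusted p of 0.0645 to 0.154 at most, each without D2 replicate 2 or 3). After the GC and length trend was removed, the adjusted p was 0.0559 for Sp9, 0.0598 for Ptprm, 0.0645 for Hrh3 and 0.0559 for Chrm3.

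Genes that lie next to the receptor genes differed along with them. Sfxn1, a mitochondrial serine carrier (chr13:54071869-54108342, plus strand) beside Drd1, was at 262, 230.3, 361 and 312 TPM in D1 and 33.03, 40.9, 45.3 and 27.9 in D2 (log2 fold change 3.09, SE 0.28, adjusted p = 0.000536). Ttc12 (chr9:49436963-49486225, minus strand), which encodes a protein of cilia assembly, had no count in any D1 library and 240.1, 264, 194 and 233 TPM in the D2 libraries. It was thus at least 20656-fold lower in D1 against the same floor (adjusted p = 5.32e-06). Ankk1, a kinase gene (chr9:49415194-49427021, minus strand) between Drd2 and Ttc12, had no count in D1 and 5.14, 11.7, 14.6 and 13.7 TPM in D2, at least 769.8-fold lower (adjusted p = 0.0116). The other listed neighbours, Hrh2 and Ncam1, were not called. Ankk1 lost its call without D2 replicate 2, 3 or 4 (adjusted p = 0.0718 at most).

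**Figure D2:**
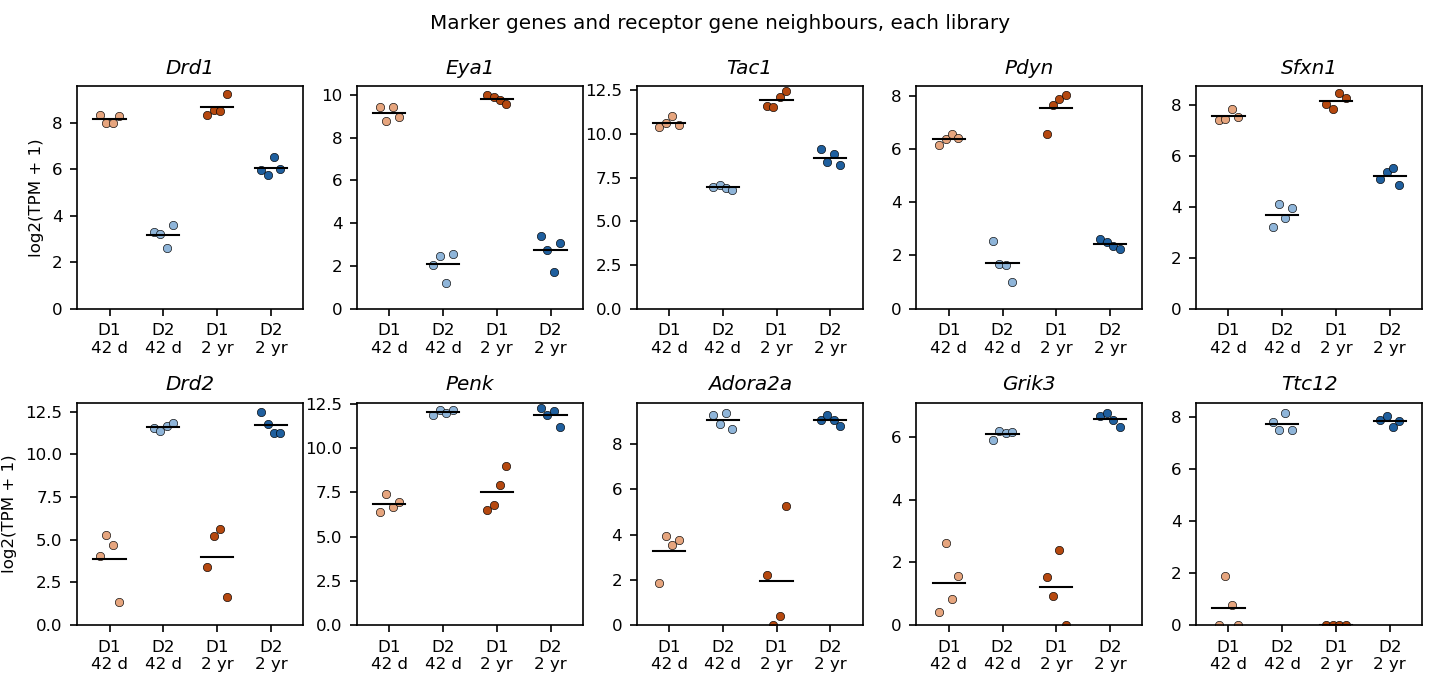
Levels of 10 marker genes and receptor gene neighbours on a log2(TPM + 1) scale, 1 point per library and a line at the mean, for D1 and D2 at 42 days and at 2 years. In each panel the 4 D1 and the 4 D2 points at 2 years do not overlap, and D1 replicate 4 stands out in Adora2a at 37.6 TPM.

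Of the 98 genes called between the kinds at 42 days (0.76% of 12896), 31 were also called at 2 years, all in the same direction, 17 higher and 14 lower in D1. That is 31.6% of the calls at 42 days and 8.76% of those at 2 years, and the lists come from different libraries. At 42 days the count was 52 to 64 without D1 replicate 2 or any 1 of the D2 libraries. Besides the genes above they include Gnai1, an inhibitory G protein subunit, at 409, 287, 359.9 and 307 TPM in D1 and 84.01, 88.9, 96.6 and 78.2 in D2 (log2 fold change 2.07, SE 0.20, adjusted p = 0.000685). Pcp4, a small calmodulin-binding protein and among the most abundant transcripts of these neurons, was at 34878, 29405, 29344 and 33591 TPM in D1 and 15436, 12136, 12014 and 9198 in D2 (log2 fold change 1.55, SE 0.18, adjusted p = 0.00239). Neither pair of groups overlapped.

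Stmn2, Scg2 and Gpr26 were also higher in D1 at both ages. Stmn2, a regulator of microtubules in axons, had 162, 136, 154 and 125 TPM in D1 and 38.2, 38.4, 50.9 and 36.5 in D2 (log2 fold change 1.91, SE 0.29, adjusted p = 0.00756). Scg2, a granin of dense core vesicles, had 273, 219, 415 and 243 TPM in D1 and 141, 57.7, 103 and 46.3 in D2 (log2 fold change 1.81, SE 0.37, adjusted p = 0.0284). Gpr26, an orphan receptor, had 40.2, 31.96, 58.1 and 37.5 and 14.4, 11.6, 13.3 and 7.19 TPM (log2 fold change 1.93, SE 0.30, adjusted p = 0.00848). The values of all 3 did not overlap between kinds, and Scg2 was not called after the GC and length trend was removed (adjusted p = 0.0604). Foxp2, a transcription factor linked to vocal learning, was called (log2 fold change 1.14, SE 0.23, adjusted p = 0.0288) although its groups overlapped, since D1 replicate 3 (124 TPM) lay below D2 replicate 1 (154 TPM). On the D2 side of this set, Kcnk2, a leak potassium channel, had 31.1, 32.4, 32.5 and 28.5 TPM in D1 and 102, 95.2, 73.8 and 102 in D2 (log2 fold change -1.48, SE 0.26, adjusted p = 0.0116). Hpca, the calcium sensor hippocalcin, had 2935, 2784, 2962 and 3307 TPM in D1 and 9142, 10664, 6765 and 6873 in D2 (log2 fold change -1.35, SE 0.18, adjusted p = 0.00468), but its adjusted p was 0.187 after the GC and length trend was removed. Mme, the protease neprilysin that degrades enkephalin, had 59.1, 27.6, 40.02 and 47.5 TPM in D1 and 122, 107, 109 and 108 in D2 (log2 fold change -1.25, SE 0.28, adjusted p = 0.041). Gnai1, Pcp4, Stmn2, Gpr26 and Hpca kept their calls without each library, and Foxp2, Scg2, Kcnk2 and Mme lost theirs without 2 to 7 of them (adjusted p of 0.0728 to 0.15 at most, each without D2 replicate 2).

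Whether a difference at 2 years exceeds that at 42 days was tested directly, as the contrast of the 2 differences over 16 libraries and 13926 genes. It was called for 246 genes (1.77%), 129 positive (0.926%) and 117 negative (0.84%). Of the 354 genes called at 2 years, 155 were also called in this contrast, 90 of them higher and 65 lower in D1 at 2 years. A further 170 were called neither in it nor at 42 days. Genes higher in D1 at 2 years had a median log2 fold change of 0.12 at 42 days, and genes lower had one of -0.15. Both sets were picked by their call at 2 years. Smaller medians at 42 days follow in part from that choice and are no finding. The contrast also uses the same libraries of 2 years, so the 155 genes shared with it are no independent result. Drd1 and Nexn were the only genes called in all 3 tests. Drd1 changed in the direction of a smaller difference: at 42 days it was at 284 ± 36.7 TPM in D1 and 8.31 ± 2.54 in D2, a log2 fold change of 5.23 against 2.76 at 2 years (difference between ages -2.45, adjusted p = 0.00561). At 2 years the 4 D2 libraries held 62.4, 53.4, 91.8 and 62.7 TPM of Drd1, against 5.11 to 11.3 in the D2 libraries at 42 days, while D1 libraries held 319.8 to 609.7 TPM against 250.3 to 320.2. The whole D1 marker list moved too: its summed level in D2 libraries was 420.1 to 678 TPM at 2 years and 135 to 156 at 42 days, and in D1 libraries 4694 to 7619 and 2561 to 3327. The part of this in the smaller difference for Drd1 was not tested. Nexn, an actin-binding protein, moved the other way: it was at 581, 704, 408 and 964 TPM in D1 and 61.2, 69.9, 64.1 and 52.8 in D2 at 2 years (log2 fold change 3.56, SE 0.32, adjusted p = 0.000536), and at 179 ± 38.8 TPM in D1 and 97.2 ± 16.9 in D2 at 42 days (1.004; difference between ages 2.58, adjusted p = 0.00499). Its groups did not overlap at 2 years.

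Chrm4, named beside those marker sums, also differed less between kinds at the older age, with 88.6 ± 15.9 TPM in D1 and 1.08 ± 1.13 in D2 at 42 days (difference between ages -4.43, adjusted p = 0.00953). For Eya1, Tac1, Pdyn, Ebf1, Drd2 and Penk the difference between ages was not called (adjusted p of 0.297 for Penk and 0.686 to 0.98 for the others). After the GC and length trend was removed, the contrast called 64 genes (43 positive, 21 negative), 42 of them among the 246, and Drd1, Chrm4 and Nexn stayed called. Left-out libraries moved the count of 246 to between 66 (without D2 replicate 2 at 2 years) and 656 (without D1 replicate 3 at 2 years). It was 113 and 145 without D2 replicates 3 and 4 at 2 years, and 75 to 136 without any 42-day library other than D1 replicate 3.

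**Figure D3:**
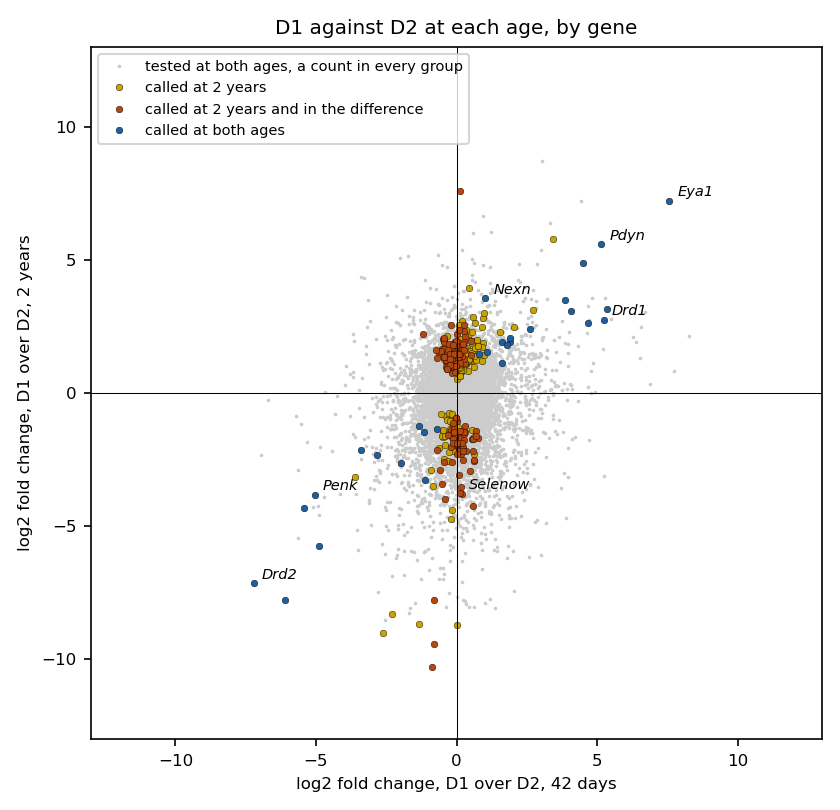
Log2 fold change of D1 over D2 at 42 days (x axis) and at 2 years (y axis) for genes tested at both ages that had a count in all 4 groups, 1 point per gene, coloured by where the gene was called. The plotted genes called at both ages have the same sign at both, with Drd1 nearer to 0 and Nexn farther from it at 2 years. Most genes called only at 2 years lie near 0 at 42 days, which follows in part from choosing them by that call.

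Signalling genes downstream of dopamine were split. Of 29 tested genes of dopamine signalling 4 were higher in D1 and 4 lower, beside calls in 2.85% of all tested genes. Their median log2 fold change was 0.16, and -0.0895 after the GC and length trend was removed. Ppp1r1b, which encodes DARPP-32, was at 1714, 1810.4, 2213 and 1319 TPM in D1 and 3515, 4163, 3551 and 3739 in D2 (log2 fold change -1.13, SE 0.15, adjusted p = 0.00415), against 3766 ± 407 TPM in D1 and 4491 ± 512 in D2 at 42 days. Ppp1ca, a catalytic subunit of the phosphatase that DARPP-32 inhibits, was at 369.9, 196, 275 and 203 TPM in D1 and 693, 918, 978 and 779 in D2 (log2 fold change -1.59, SE 0.24, adjusted p = 0.00756). Gng7, the G protein gamma subunit that pairs with the alpha subunit Golf in the striatum, was at 388, 551, 759 and 523 TPM in D1 and 1172, 1716, 1384 and 1327 in D2 (log2 fold change -1.04, SE 0.19, adjusted p = 0.0191). All 3 were lower in every D1 library than in any D2 library. None of the 3 was called after the GC and length trend was removed (adjusted p = 0.217, 0.0935 and 0.172).

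Other signalling genes were higher in D1. Ppp3ca, the catalytic subunit of calcineurin, was at 3218, 3867, 2393 and 2497 TPM in D1 and 1421, 1606, 1623 and 2031 in D2 (log2 fold change 1.19, SE 0.21, adjusted p = 0.0145). Rasgrp1, an activator of Ras that is enriched in striosomes, was at 1547, 1484, 1116 and 1378 TPM in D1 and 660.3, 628, 535 and 637 in D2 (log2 fold change 1.27, SE 0.16, adjusted p = 0.00322). Rgs4, which shortens G protein signals, was at 924, 675, 548 and 755 TPM in D1 and 289.9, 332, 418 and 404 in D2 (log2 fold change 1.11, SE 0.22, adjusted p = 0.025). At 42 days these 3 genes had log2 fold changes of 0.00, 0.26 and -0.07, and the difference between ages was called for each. That contrast was lost without 42-day D2 replicate 4 for Rasgrp1, and for Ppp3ca and Rgs4 also without D2 replicate 2 at 2 years and 2 to 4 further libraries (adjusted p of 0.0568 to 0.0725 at most). For all 3 it was also lost after the GC and length trend was removed, with adjusted p = 0.212 for Rasgrp1 and 0.123 for Rgs4. Among G protein beta subunits, Gnb4 was D1-biased at 59.4, 79.2, 113 and 37.6 TPM against 6.64, 22.4, 15.9 and 19.6 (log2 fold change 2.48, SE 0.39, adjusted p = 0.00848). Gnb5, the beta subunit that works with RGS9, was D2-biased at 16.8, 3.07, 2.92 and 5.78 TPM against 72.9, 85.5, 118 and 69.5 (log2 fold change -3.50, SE 0.73, adjusted p = 0.0319). Neither pair of groups overlapped. Rgs4 and Gnb5 were not called after the GC and length trend was removed (adjusted p = 0.0833 and 0.0798). Ppp1r1b, Ppp1ca, Rasgrp1 and Gnb4 kept their calls at 2 years without each library, while Gng7, Ppp3ca, Rgs4 and Gnb5 lost theirs without 4 to 6 of the 8 (adjusted p of 0.0769 to 0.14 at most, without D2 replicate 2 or 3).

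Genes shared by all SPNs mostly did not pass the test: of 17, only Gad2 was higher in D1, and Ppp1r1b and Rasd2 lower, with a median of -0.15. The share called among all tested genes was 2.85%. Gad2, a synthesising enzyme of GABA, was at 3298, 2405, 2251 and 2146 TPM in D1 and 1089.6, 944, 982 and 1087 in D2 (log2 fold change 1.40, SE 0.14, adjusted p = 0.00136). The lowest D1 value, 2146 TPM, lay above the highest D2 value, 1089.6 TPM. Its partner enzyme Gad1 overlapped between kinds, at 219, 271, 163 and 124 TPM in D1 and 92.2, 149.9, 137 and 254 TPM in D2 (log2 fold change 0.31, SE 0.31, adjusted p = 0.687). At 42 days Gad2 was at 897 ± 275 TPM in D1 and 994 ± 189 in D2 (difference between ages 1.47, adjusted p = 0.00574). That difference was not called after the GC and length trend was removed (adjusted p = 0.156).

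Presynaptic release genes were called mostly in the D1 direction, as were 62.1% of all calls. Of 28 tested, 5 were higher in D1 and 1 lower, with a median of 0.60. Over all tested genes 1.77% were called higher and 1.08% lower. Snap25, a membrane fusion protein of the SNARE complex, was at 22253, 24895, 22580.2 and 21782 TPM in D1 and 14479.6, 11471, 11244 and 9186 in D2 (log2 fold change 1.07, SE 0.14, adjusted p = 0.00326). Syn1, which tethers synaptic vesicles, was at 617, 718, 394 and 502 TPM in D1 and 197, 210.4, 189.6 and 248 in D2 (log2 fold change 1.51, SE 0.22, adjusted p = 0.00555). Its exons overlap those of Araf on the opposite strand, which reached 812 TPM, and reads of the pair cannot be told apart without strand. The fusion clamp Cplx2 was at 1892, 2245, 1307 and 1908 TPM in D1 and 1167, 974, 752 and 819 in D2 (log2 fold change 1.10, SE 0.21, adjusted p = 0.0204). Syt4, a synaptotagmin of dense core vesicles, was at 194, 323, 183 and 183 TPM in D1 and 122, 87.7, 84.7 and 107 in D2 (log2 fold change 1.24, SE 0.24, adjusted p = 0.0235). None of these 4 pairs of groups overlapped.

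Sv2a, a glycoprotein of synaptic vesicles, was the one gene called lower in that list, at 18.01, 18.6, 25.2 and 24.7 TPM in D1 and 48.2, 65.1, 79.8 and 75.9 in D2 (log2 fold change -1.46, SE 0.31, adjusted p = 0.0327). Syp, synaptophysin, was at 12.4, 34.6, 86.4 and 64.6 TPM in D1 and 403, 424, 442 and 202 in D2 (log2 fold change -2.92, SE 0.56, adjusted p = 0.022). After the GC and length trend was removed, Cplx2, Snap25 and Syn1 were still called, and Syt4, Sv2a and Syp were not (adjusted p = 0.195, 0.125 and 0.0604). D2 replicate 4 had less Syp than the other D2 libraries but more than any D1 library. For Snap25 the log2 fold change was 0.04 at 42 days and for Syp 0.49, and the difference between ages was called for both (adjusted p = 0.0105 and 0.0211), for Syp not without D2 replicate 2 at 2 years or D2 replicate 4 at 42 days (0.0568 at most). Neither difference between ages was called after the GC and length trend was removed (adjusted p = 0.113 for Snap25 and 0.0791 for Syp). Snap25 and Syn1 kept their calls without each library, and Cplx2, Syt4, Sv2a and Syp lost theirs without 4 to 7 of them (adjusted p of 0.0873 to 0.143 at most, without D2 replicate 2 or 3).

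Postsynaptic genes called by edgeR were lower in D1. Among 21 tested scaffold genes 2 were lower and none higher, with a median of -0.15 that was 0.0657 after the GC and length trend was removed. Among 21 tested glutamate receptor genes 3 were lower and none higher, with a median of -0.09. Over all tested genes 1.08% were called lower. DESeq2 called 2 scaffold genes higher and 4 lower, and 1 glutamate receptor gene higher and 4 lower. Dlg4, the scaffold PSD-95, was at 361, 203, 617 and 487 TPM in D1 and 1168, 1243, 1105 and 1136 in D2 (log2 fold change -1.49, SE 0.22, adjusted p = 0.00677). Of the receptors besides Grik3, Grin1, the obligatory NMDA receptor subunit, was at 77.99, 43.9, 95.9 and 45.3 TPM in D1 and 119.6, 176, 197 and 133 in D2 (log2 fold change -1.39, SE 0.33, adjusted p = 0.0495). Grik5, a kainate receptor subunit, was at 11.4, 10.3, 23.9 and 9.69 TPM in D1 and 60.5, 45.5, 45.6 and 34.9 in D2 (log2 fold change -1.68, SE 0.40, adjusted p = 0.0495). In all 3 the kinds did not overlap, with the gap narrowest for Grin1. Grin1 and Grik5 were not called after the GC and length trend was removed (adjusted p = 0.51 and 0.59), and they lost their calls without 7 of the 8 libraries (0.168 at most, without D2 replicate 2). Dlg4 kept its call under both.

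Of 34 potassium channel genes 1 was higher and 1 lower (median 0.17), and of 30 sodium and calcium channel genes none was higher and 2 were lower (median -0.12), where 2.85% of all tested genes were called. Kcnq3, a subunit of the M-current channel that muscarinic receptors close, was at 567, 677, 348 and 402 TPM in D1 and 146, 87.4, 78.6 and 98.95 in D2 (log2 fold change 2.38, SE 0.26, adjusted p = 0.00176). At 42 days it was at 139.5 ± 36.8 TPM in D1 and 144 ± 46.9 in D2 (difference between ages 2.32, adjusted p = 0.00499). That difference was not called after the GC and length trend was removed (adjusted p = 0.0769). Lower in D1 were Cacna1i, a T-type calcium channel, at 4.56, 1.58, 7.13 and 2.35 TPM against 25.4, 20.6, 14.98 and 16.7 (log2 fold change -2.19, SE 0.48, adjusted p = 0.0375), and the sodium channel subunit Scn2b at 178, 155, 217 and 146 against 349, 315, 265 and 283 (log2 fold change -0.77, SE 0.18, adjusted p = 0.0462). Neither Cacna1i nor Scn2b was called after the GC and length trend was removed (adjusted p = 0.154 and 0.068). Kcnq3 kept its call without each library, and Cacna1i and Scn2b lost theirs without 6 and 7 of them (adjusted p of 0.15 and 0.169 at most, without D2 replicate 2). The neurofilament gene Nefm was at 377, 304, 214 and 388 TPM in D1 and 92.3, 79.7, 82.2 and 64.8 in D2 (log2 fold change 2.13, SE 0.27, adjusted p = 0.00322), with its neighbour Nefl overlapping it on the opposite strand at up to 672 TPM.

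Some lists had no called gene in the edgeR test. Among 50 axon guidance and adhesion genes none was called, with 6 higher and 6 lower at an unadjusted p under 0.05 and 4 and 3 called by DESeq2. None of 17 immediate early genes was called, with none higher and 2 lower unadjusted and none called by DESeq2. Of 35 transcription regulators of SPNs the called ones were Eya1, Ebf1 and Foxp2, higher, and Sp9, lower. Of 9 striosome markers Tac1, Pdyn and Rasgrp1 were higher, the first pair also being D1 markers, and none of 6 matrix markers was called (3 higher unadjusted, 1 by DESeq2). Among all tested genes 2.85% were called.

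Genes of energy metabolism changed in both directions. Of 75 nuclear genes of the respiratory chain, 8 were higher in D1 and 4 lower, beside calls in 2.85% of all tested genes. Their median was -0.10, and 0.21 after the GC and length trend was removed. Atp5a1, the alpha subunit of ATP synthase, was at 1089.6, 1242, 899 and 673 TPM in D1 and 392, 491, 542 and 566 in D2 (log2 fold change 1.07, SE 0.20, adjusted p = 0.0191). Uqcrb, a subunit of complex III, was at 1198, 929, 839 and 1812 TPM in D1 and 484, 360.1, 408 and 271 in D2 (log2 fold change 1.87, SE 0.35, adjusted p = 0.0198). Against these, Cox6a1, a subunit of complex IV, was at 940.4, 359, 1030.5 and 378 TPM in D1 and 2134, 2878, 2347 and 1683 in D2 (log2 fold change -1.60, SE 0.35, adjusted p = 0.0358). Uqcr11, a further subunit of complex III, was at 159.7, 74.3, 199 and 118 TPM in D1 and 404, 919, 647 and 668 in D2 (log2 fold change -2.08, SE 0.42, adjusted p = 0.0277). Higd1a, which helps assemble the chain, was at 443, 768, 359 and 473 TPM in D1 and 207, 151, 86.6 and 96.4 in D2 (log2 fold change 2.04, SE 0.34, adjusted p = 0.0114). So subunits of the same complex were called in opposite directions, and no pair of groups among these 5 genes overlapped. The other called members were Atp5j, Atp5g3, Sdha, Cox7b, Ndufa5 and Ndufa8, higher, and Atp5d and Cox4i1, lower. None of 12 mitochondrially encoded genes was called (none at an unadjusted p under 0.05 and none by DESeq2).

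Antioxidant genes were called in both directions as well: of 18, 1 was higher and 2 lower, with a median of -0.18. The share called over all tested genes was 2.85%. Sod2, the mitochondrial superoxide dismutase, was at 503, 601, 538 and 318 TPM in D1 and 289.8, 219, 174 and 197 in D2 (log2 fold change 1.24, SE 0.21, adjusted p = 0.0122). The peroxide-removing enzyme Gpx1 was at 33.4, 22.7, 61.05 and 9.16 TPM in D1 and 179, 221, 250.3 and 150.2 in D2 (log2 fold change -2.60, SE 0.53, adjusted p = 0.0284). Prdx5, a peroxiredoxin, was at 28.2, 14.8, 54.8 and 31.7 TPM in D1 and 202, 416, 289 and 286 in D2 (log2 fold change -2.59, SE 0.44, adjusted p = 0.0116). Each of the 3 separated the kinds. Selenow, a small selenoprotein with a thioredoxin-like fold, was not on that list: 67.2, 69.03, 273 and 47.96 TPM in D1 and 1362, 1998, 1426 and 1863 in D2 (log2 fold change -3.75, SE 0.51, adjusted p = 0.00463), against 1265 ± 314 TPM in D1 and 1285 ± 259 in D2 at 42 days (difference between ages -3.86, adjusted p = 0.00499). D1 replicate 3 had more Selenow than the other D1 libraries and still less than any D2 library.

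Limits on these metabolic genes were wide. Of the 10 named in this group, Aldoc below included, only Selenow kept its call without each library, and the others lost it without 1 to 6 of them (adjusted p of 0.0569 to 0.15 at most, without D2 replicate 2 or 3). After the GC and length trend was removed Cox6a1, Uqcr11, Uqcrb, Sod2 and Gpx1 were not called (adjusted p = 0.429, 0.173, 0.0605, 0.179 and 0.0871).

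Of 17 chaperone genes 2 were higher in D1 and none lower, with a median of 0.36, beside calls in 2.85% of all tested genes. Hsp90aa1, an inducible form of HSP90, was at 1759, 1680.2, 1102 and 1935 TPM in D1 and 723, 603, 681 and 877 in D2 (log2 fold change 1.196, SE 0.25, adjusted p = 0.0322). Hspa4, a nucleotide exchange factor of HSP70, was at 372, 640.1, 431 and 934 TPM in D1 and 174, 149, 175 and 144 in D2 (log2 fold change 1.24, SE 0.27, adjusted p = 0.035). The groups of both genes were apart. Of 32 small subunit ribosomal proteins 1 was higher and 1 lower (median -0.23, but 0.11 after the GC and length trend was removed), and of 48 large subunit ones 2 were higher and 1 lower (median -0.09, but 0.0093). Rps6 was at 912, 782, 868 and 545 TPM in D1 and 516, 307, 311 and 363 in D2 (log2 fold change 1.18, SE 0.24, adjusted p = 0.0282), and Rplp2, a stalk protein, was at 121, 153, 206 and 233 and 524, 841, 1229 and 1022 (log2 fold change -2.15, SE 0.41, adjusted p = 0.0214). Rpl10a, the gene of the tagged protein, overlapped between kinds at 642, 411, 619.5 and 313 TPM in D1 and 624, 696, 635 and 680.3 in D2 (log2 fold change -0.28, SE 0.24, adjusted p = 0.624). Abce1, which splits ribosomes for reuse, overlapped too, at 38.3, 45.7, 29.6 and 20.6 TPM in D1 and 23.3, 22.9, 34.4 and 49.3 in D2 (log2 fold change 0.14, SE 0.38, adjusted p = 0.905), and none of 17 genes of ribosome recycling and nonsense-mediated decay was called (5 higher and 3 lower unadjusted, 2 and 1 by DESeq2). Hsp90aa1, Hspa4 and Rplp2 were not called after that trend was removed (adjusted p = 0.0971, 0.0831 and 0.0574). Hsp90aa1, Hspa4, Rps6 and Rplp2 lost their calls without 5 or 6 of the 8 libraries (adjusted p of 0.105 to 0.146 at most).

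**Figure D4:**
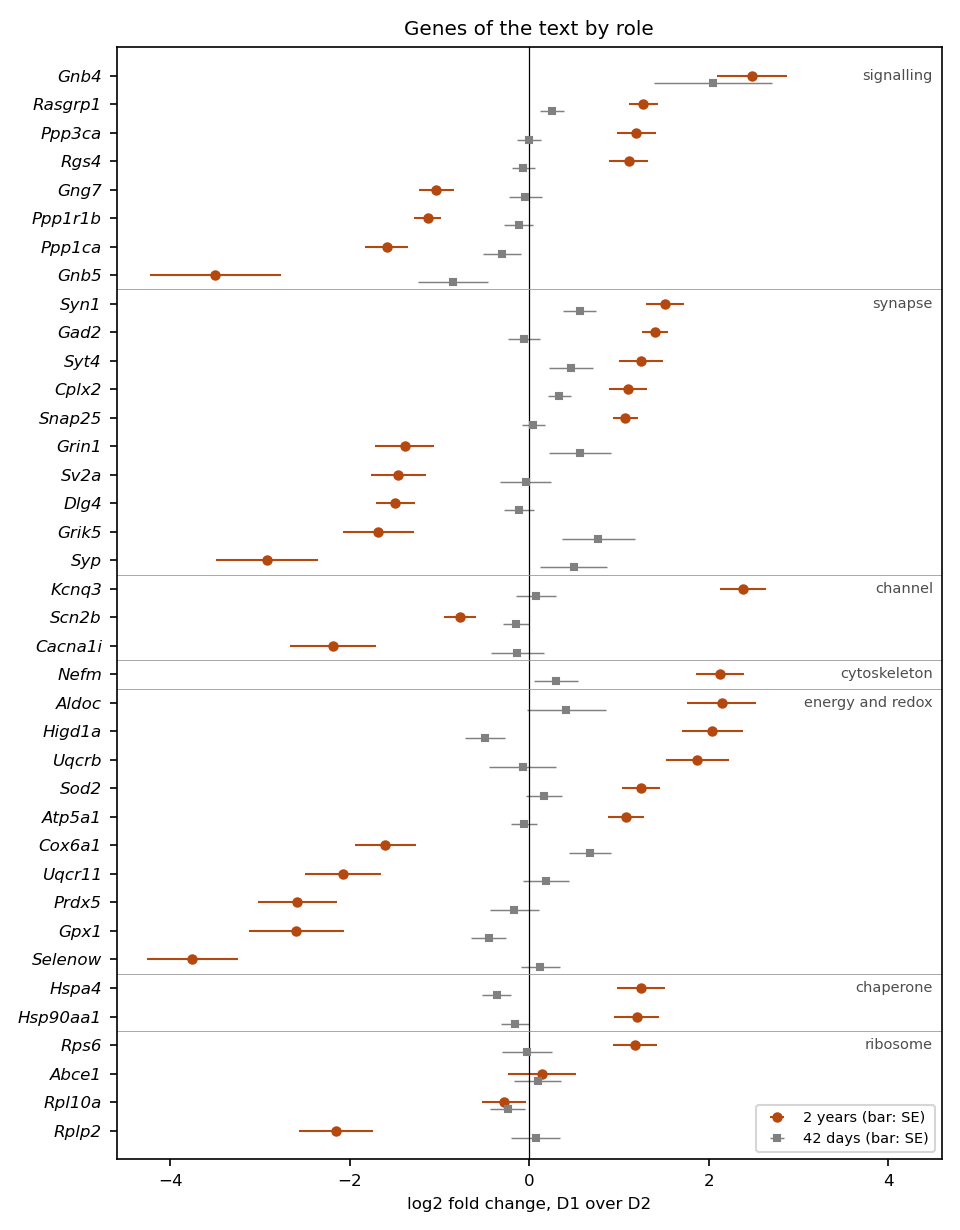
Log2 fold change of D1 over D2 with its SE for the named genes of signalling, synapse, channels, cytoskeleton, energy and redox, chaperones and ribosome, at 2 years (circles) and at 42 days (squares). Most genes that lie away from 0 at 2 years lie near 0 at 42 days, with Gnb4 at 2.05 and Gnb5 at -0.85 among the exceptions. Most of the genes shown were chosen with a call at 2 years, so this follows in part from the choice. Rpl10a and Abce1 lie near 0 at both ages.

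The summed markers of each other cell type lay below the summed markers of the SPN kind in the label. Those were 4694 to 7619 TPM for D1 markers in D1 and 5561 to 11629.5 for D2 markers in D2. Beside the counts of called markers below, edgeR called 2.85% of all tested genes, 1.77% higher in D1 and 1.08% lower. Of 9 tested astrocyte markers 1, the glycolytic enzyme Aldoc, was higher in D1, at 192, 292, 257 and 369 TPM against 113, 66.4, 48.4 and 48.7 (log2 fold change 2.14, SE 0.39, adjusted p = 0.016), with 3 higher and none lower unadjusted and 2 and none by DESeq2. The summed level of that list was 341 to 501 TPM in D1 and 179.5 to 271 in D2. Aldoc held 192 to 369 TPM in D1 and 48.4 to 113 in D2, and Slc4a4 held 95.5 to 166 and 69.4 to 104.45. Gfap held 0 to 8.50 TPM in D1 and 15.1 to 24.4 in D2, Aqp4 0 to 6.85 and 0.19 to 3.04, and Aldh1l1 0 to 0.21 and 0 to 1.26. Aqp4, Gja1, Gjb6 and Fgfr3 were at 0 in the same 3 of the 4 D1 libraries. Aldoc was also the 1 called gene of 16 in glycolysis, and what the astrocyte markers contribute to it was not tested. None of 10 oligodendrocyte markers was called (none higher and 2 lower unadjusted, none and 2 by DESeq2), with sums of 95.9 to 484 TPM in D1 and 262 to 399.7 in D2. None of 5 microglial markers was called (1 higher and 1 lower unadjusted, and the same by DESeq2), with sums of 15.9 to 45.2 TPM and 13 to 34.5 TPM, and C1qa was at 0 in all 8 libraries. Cholinergic interneuron markers summed to 0.2 to 1.86 TPM in D1 and 15.2 to 27.6 in D2, with Lhx8 and Slc10a4 at 0 in every D1 library, and none of 5 tested was called (2 lower unadjusted and by DESeq2). GABAergic interneuron markers summed to 31.6 to 606 TPM in D1 and 24.9 to 156 in D2, set by Sst. In D1 replicate 3 Sst reached 509 TPM, above the 366 TPM of Drd1 in that library. Glutamatergic markers were near 0 except in D1 replicate 4, where Tbr1 reached 139 TPM, and D1 replicate 1, where Neurod6 reached 30.6 TPM.

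Isoform use differed between the kinds in 347 of 4458 tested genes (7.78%), by edgeR's test of isoform usage with Simes p-values adjusted over genes, and 631 had an unadjusted p under 0.05. At 42 days the same test called 6 of 5230 genes (0.115%), none of them among the 347, and the contrast of the ages called 316 of 6426 (4.92%), of which 161 were among the 347. Only 22 of the 347 were also called as whole genes. Of 12694 single isoforms 404 were called (3.18%), 62 with a larger and 342 with a smaller share in D1, and 313 of the 342 had a share of 0 in every D1 library. D1 libraries also held fewer isoforms with a count, 15645 to 25217 against 26666 to 30489 in D2. That count moves with the isoform result, and its part in it was not tested.

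In 328 of the genes, the isoform that gained most in D1 could be paired with the one that lost most, with a median gain of 36.1 percentage points against 0.28 at 42 days. Genes and isoforms were picked for their change at 2 years, so the larger gain there follows from the choice and is no finding. Of 319 pairs with an annotated type, 201 exchanged a protein-coding isoform for another, 66 a protein-coding one for one of another type (decay targets included), 41 the reverse, and 11 held no protein-coding isoform. The gaining isoform was the shorter in 216 pairs, and had fewer exons in 147, more in 86 and the same number in 86. These counts of types, lengths and exons have no share over all tested genes beside them and are a description only. Leaving out 1 library moved the count of 347 to between 87 (without D2 replicate 2) and 356 (without D1 replicate 3), and it was 162, 123 and 206 without D1 replicates 1, 2 and 4 and 135 and 118 without D2 replicates 3 and 4.

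In Poldip3, Atp5d, Pde10a and Grin1 a cassette exon is among the differences between the gaining isoform and the losing one. The isoforms of each pair also differ elsewhere: Grin1-205, which lacks the exon, is 3838 bases long and Grin1-207 is 3809. Shares rest on reads over whole isoforms, and reads across the junctions were not counted. For these genes the 30 bases around the splice junction are printed below to show what each isoform joins. The last 15 bases of the upstream exon are in lower case and the first 15 of the downstream exon in capitals. They are read 5′ to 3′ from the sense strand in GRCm38 with GENCODE M21 exons.
Poldip3-201, into the exon: accaaaactatccagGTTCCACAGCAAAAG
Poldip3-202, across it: accaaaactatccagAACTTGTATGACCTG
Atp5d-201, into the exon: cgactaagtactttgTGAGCAGCGGCTCCG
Atp5d-202, across it: cgactaagtactttgGCAGCCCGGGCCAAC
Pde10a-202, into the exon: gcatcatcaggatagCCACAAAAGCCGACG
Pde10a-205, across it: gcatcatcaggatagAGCCTGTGTGTGTTC
Grin1-207, into the exon: gagcgtgagtccaagAGTAAAAAAAGGAAC
Grin1-205, across it: gagcgtgagtccaagGCAGAGAAGGTGCTG
In each pair the lower-case part is shared and the capitals differ, since skipping joins the upstream exon to a later one.

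Poldip3, a protein of mRNA export that binds near splice junctions, has its cassette exon at chr15:83137468-83137554 on the minus strand, exon 3 of Poldip3-201, which is 87 bases long, a multiple of 3, and coding. Poldip3-202, which skips it, took 88.7, 90.7, 62.1 and 88.2% of the gene's TPM in the D1 libraries and 0, 0, 0 and 0% in the D2 libraries (gene-level adjusted p = 0.000249). The full-length Poldip3-201 took 11.3, 9.29, 37.6 and 11.8% in D1 and 100.0, 99.7, 92.2 and 98.8% in D2. The groups lay far apart, while at 42 days the skipping form averaged 5.41% in D1 and 9.15% in D2. The whole gene was at 44.6 ± 12.9 TPM in D1 and 62.4 ± 23.3 in D2.

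Atp5d, the delta subunit of ATP synthase, has its cassette exon at chr10:80145219-80145307 on the plus strand, exon 3 of Atp5d-201, and its 89 bases are not a multiple of 3. Atp5d-202, which skips it, took 90.4, 80.2, 72.6 and 97.6% of the gene's TPM in D1 and 0.477, 0.358, 1.71 and 1.13% in D2 (gene-level adjusted p = 0.0268). These shares did not overlap, and the whole gene was also lower in D1, at 134 ± 70.2 TPM against 479 ± 92.03. The isoform call was lost without D1 replicate 2 or any 1 of the D2 libraries (adjusted p = 0.122 at most). It was also lost when isoforms were filtered by a mean of at least 50 counts and when no isoform filter was used. At 42 days the skipping form averaged 8.85% in D1 and 10.5% in D2, and the difference between ages was not called (adjusted p = 0.103).

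Pde10a, a phosphodiesterase concentrated in SPNs, showed the smallest gene-level p of those described. Its cassette exon of 50 bases lies at chr17:8930510-8930559 on the plus strand, exon 5 of Pde10a-202. Pde10a-205 skips it and is annotated as a target of nonsense-mediated decay, with 71.5, 65.1, 36.3 and 99.4% of the gene's TPM in D1 and 0.962, 1.19, 0.636 and 1.95% in D2 (adjusted p = 6.36e-07). The coding Pde10a-202 took 22.3, 34.8, 63.4 and 0.632% in D1 and 82.2, 79.2, 83.7 and 88.4% in D2. D1 replicate 4 had almost only the skipping form and D1 replicate 3 the least of it. At 42 days the skipping form averaged 2.17% in D1 and 1.56% in D2, and the difference between ages was called (adjusted p = 9.04e-06).

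Grin1 has its cassette exon, which encodes the N1 insert of the NMDA receptor's outer domain, at chr2:25311343-25311405 on the minus strand, exon 4 of Grin1-207. Here the skipping form was the one lost: Grin1-205 took 0, 0, 0 and 0% of the gene's TPM in D1 and 89.2, 93.95, 74.7 and 67.3% in D2 (adjusted p = 0.00104). Grin1-207, which includes the exon, took 36.6, 97.7, 0.709 and 100.0% in D1 and 2.17, 0.746, 0 and 6.12% in D2, so the groups overlapped. D1 replicates 1 and 3 held most of their Grin1 TPM in other isoforms, and an exchange at this exon was not shown for them. At 42 days the skipping form averaged 42.2% in D1 and 51.2% in D2, and the difference between ages was called (adjusted p = 0.000609). Poldip3, Pde10a and Grin1 kept their isoform calls without each library.

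Exchanges outside these cassette exons included Sh3bp5, a regulator of a stress kinase and of Rab11. Sh3bp5-202 took 100.0, 100.0, 100.0 and 100.0% in D1 and 0, 0, 0 and 0% in D2 (adjusted p = 0.00249). At 42 days its share varied widely within a kind, at 0, 100, 1.81 and 0% in D1 and 67.8, 0, 6.74 and 0% in D2. The whole gene was at 18.9 ± 12.8 TPM in D1 and 27.1 ± 4.94 in D2 at 2 years. In Drosha, the nuclear enzyme that cuts primary microRNAs, Drosha-201 took 0, 0, 0.701 and 0.132% in D1 and 63.2, 73.9, 83.6 and 78.5% in D2 (adjusted p = 0.00687). Drosha-207 held the rest in most D1 libraries, and both isoforms have a coding length of 4119 bases. Dusp3, a phosphatase that acts on MAP kinases, used Dusp3-206 for 77.05, 100.0, 89.5 and 100.0% in D1 and 0, 0, 0 and 0% in D2 (adjusted p = 0.00261). At 42 days Dusp3-206 took 0, 26.8, 50.9 and 0% in D1 and 0, 0, 0 and 3.58% in D2. The difference between ages was not called for this gene (adjusted p = 0.0826). Fkbp1a, the binding protein of FK506, used Fkbp1a-205 for 54.6, 78.8, 77.5 and 90.9% in D1 and 20.5, 0.699, 1.55 and 0.964% in D2 (adjusted p = 0.0204). In all 4 genes the shares of the 2 kinds did not overlap at 2 years. Sh3bp5, Drosha and Dusp3 kept their calls without each library, and Fkbp1a lost its call without D1 replicate 2 and D2 replicates 2, 3 and 4 (adjusted p = 0.199 at most). Fkbp1a also lost it when isoforms were filtered by a mean of at least 50 counts.

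Several gaining isoforms carry no full reading frame in the annotation. In Rpl6, a large subunit ribosomal protein, the retained-intron isoform Rpl6-203 took 78.8, 89.3, 76.2 and 49.8% in D1 and 6.68, 0.91, 0 and 0.286% in D2 (adjusted p = 0.0212). At 42 days Rpl6-203 already took 0, 20.1, 24.3 and 23.6% in D1 and 0, 0, 1.92 and 3.42% in D2. In Calm3, which encodes calmodulin, the decay target Calm3-202 took 44.6, 59.9, 36.7 and 49.2% in D1 and 0, 0, 0 and 0% in D2 (adjusted p = 0.0159). In Chmp4b, a subunit of the ESCRT-III membrane scission complex, the processed transcript Chmp4b-203 took 88.9, 94.2, 57.6 and 89.9% in D1 and 0, 0, 0 and 2.33% in D2 (adjusted p = 0.0158). These 3 separated the kinds in every library at 2 years, and each lost its call without D2 replicate 2 and without D2 replicate 3, with adjusted p of 0.0602 to 0.0987 at most. Rpl6 also lost its call when isoforms were filtered by a mean of at least 50 counts. The difference between ages was not called for Rpl6, Calm3 (adjusted p = 0.133) or Chmp4b (0.561). Rpl6 and Calm3 have close copies in the genome that share reads, which makes their isoform values uncertain.

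**Figure D5:**
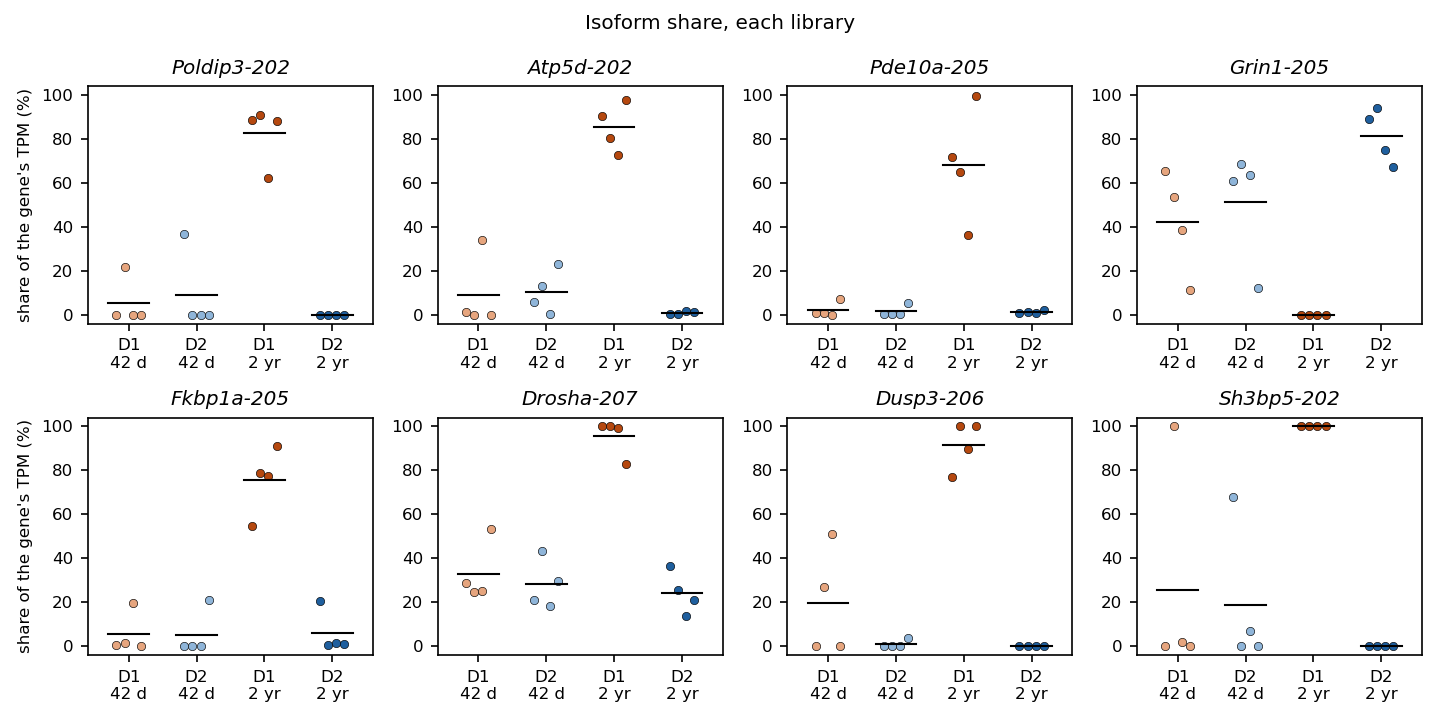
Share of the gene's TPM in 1 isoform of each of 8 genes, in percent, 1 point per library and a line at the mean, for D1 and D2 at 42 days and at 2 years. At 2 years the D1 and D2 points do not overlap in any panel, and Grin1-205 is the isoform that is absent from D1 while the other 7 are those gained.

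Summed over all genes, isoforms of several annotated types differed between kinds. Retained-intron isoforms held 5.83% ± 0.473 of isoform TPM in D1 and 3.75% ± 0.311 in D2 (SD, n = 4 each; exact two-sided permutation p = 0.0286, adjusted p = 0.0343 over 6 types). Targets of nonsense-mediated decay held 2.34% ± 0.248 in D1 and 1.66% ± 0.121 in D2, and processed transcripts 7.05% ± 0.97 and 4.39% ± 0.279, with the same exact p. Protein-coding isoforms held 74.8% ± 1.30 in D1 and 71.1% ± 1.43 in D2 and long intergenic RNA 6.86% ± 0.838 and 16.1% ± 2.11, again with that exact p. Those last 2 directions turned around without Gm42418, which is typed as long intergenic RNA: protein-coding isoforms then held 79.8% in D1 and 84.5% in D2 and long intergenic RNA 0.622% and 0.436%. Without that gene the retained-intron, decay and processed classes stayed higher in D1, at 6.22% against 4.45%, 2.49% against 1.97% and 7.51% against 5.22%. At 42 days, without Gm42418, the ranges of the 2 kinds overlapped in these 3 classes.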

How the data were processed

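TRAP mRNA was amplified, per the labels, with an Ovation V2 kit from NuGEN. The submitters' processing notes name RSEM 1.2.20, STAR 2.5.1b and the build mm10; the annotation release and whether strand was used in counting: not given in the sources used here. The deposited tables hold RSEM expected counts per gene and isoform and TPM, per the file headers. RSEM divides fragments that match several genes or isoforms among them, so genes with close copies (ribosomal proteins, respiratory chain) and isoforms are uncertain, and without strand, genes that overlap on opposite strands can share reads. No molecular identifiers are named, so bounds cover counting error only.

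Names, positions and isoform types came from GENCODE M21 on GRCm38 (37693 of 39017 genes and 91320 of 94647 isoforms matched; the latter held at least 98.8% of counts in each library). Expected counts were rounded, filtered with filterByExpr, scaled by TMM and tested with edgeR 4.0.16 (robust quasi-likelihood, R 4.3.3) on the 8 libraries of 2 years, on the 8 of 42 days, and on all 16 for the difference between ages. Isoform use was tested with edgeR's diffSpliceDGE in genes with at least 2 kept isoforms, and an isoform share is its percent of the gene's TPM, computed from the deposited values. Library measures and type shares were compared by exact permutation (70 splits). The biological coefficient of variation was 98.4% at 2 years and 75% at 42 days. On simulated counts with this spread 22 of 50 genes changed by a log2 of 3 and 12 of 50 changed by -3 were called, 1 and 0 of 50 changed by 1 and -1, and 12 of 200 isoform exchanges. Gene lists are described by counts and medians and were not tested as sets. Some listed genes that passed the test are counted but not reported here by name.

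The comparison, lists and genes were chosen with earlier results of these data known. Named genes are 12 per direction by size of change among called genes with a regular symbol, at least 5 TPM in the higher kind and no overlap between kinds. To these the rule adds up to 3 called genes per list and direction, a fixed set, and genes called in the contrast of ages by smallest adjusted p. The added genes were not screened for overlap. In all, 84 genes met this rule, of which the text describes a part. Isl1, Ptprm, P2ry1, Pcp4, Scg2, Stmn2, Gpr26, Mme, Hpca, Gng7, Gnb4, Gnb5, Rgs4, Syt4, Cplx2, Syp, Nefm, Atp5a1 and Uqcrb, and the isoforms of all genes except Sh3bp5 and Dusp3, fall outside it and were chosen after their values were seen. Alternatives were DESeq2 1.42.0, limma 3.58.1 on log2 TPM (pseudocounts 1 and 0.1) or with library weights, other filters and scalings, removal of each library's trend over GC content and length, all 16 libraries in the fit, a block for the shared first part of the index, and each library left out.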

Additional observations from a re-analysis of the deposited data

Results flagged for a closer look

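In 13 cases 1 library stood off from the other 3 of its kind at 2 years by more than the 95% critical value of Dixon's gap test, out of 161 groups of 4 screened, and chance exceeds that value in about 1 group in 20. D1 replicate 4 had 86.1 TPM of Ebf1 (the next D1 library 32.1), 37.6 TPM of Adora2a, 4.45% of counts in Gm42418 and 8.49% of isoform TPM in processed transcripts. D1 replicate 3 had 0.91 TPM of Oprd1 (the others 0), 23.9 TPM of Grik5 and 273 TPM of Selenow, and D1 replicate 2 had 323 TPM of Syt4. D2 replicate 1 had 92.9 TPM of P2ry1, 154 TPM of Foxp2 and 122 TPM of Mme, D2 replicate 3 had 50.9 TPM of Stmn2, and D2 replicate 4 had 202 TPM of Syp.

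The difference between D1 and D2 at 2 years itself differed from that at 42 days in 246 genes, and in isoform use in 316 genes (edgeR, adjusted over genes). Among named genes the contrast of ages, on the log2 scale, was -2.45 for Drd1, -4.43 for Chrm4, 2.58 for Nexn, -0.996 for Ppp1r1b, 1.19 for Rgs4, 1.22 for Ppp3ca, -1.27 for Ppp1ca and 1.04 for Rasgrp1. For synaptic and channel genes it was 1.05 for Snap25, -3.40 for Syp, -1.36 for Dlg4, -2.43 for Grik5, 1.47 for Gad2 and 2.32 for Kcnq3, and for the neurofilament gene Nefm 1.85. For energy and redox genes it was 1.15 for Atp5a1, -2.25 for Cox6a1, -2.24 for Uqcr11, -2.12 for Gpx1, -2.40 for Prdx5, -3.86 for Selenow and 2.56 for Higd1a. For chaperones and ribosomal proteins it was 1.38 for Hsp90aa1, 1.63 for Hspa4 and -2.21 for Rplp2. After the GC and length trend was removed, 7 of these 25 genes (Drd1, Chrm4, Nexn, Nefm, Atp5a1, Selenow and Higd1a) were still called. Without 1 library the contrast was lost for Ppp1ca and Gpx1 in 12 of 16 cases, for Grik5 in 9, for Ppp1r1b and Rplp2 in 7, for Rgs4 and Hsp90aa1 in 6, for Ppp3ca and Atp5a1 in 4, for Syp, Uqcr11 and Prdx5 in 2 and for Rasgrp1 and Nefm in 1 (adjusted p of 0.12 at most, for Ppp1ca). The other 11 genes lost it in none of the 16. In isoform use the contrast was called for Poldip3 (adjusted p = 0.0312), Sh3bp5 (0.0245), Pde10a (9.04e-06), Fkbp1a (0.000483), Drosha (0.000483) and Grin1 (0.000609). It was not called for Atp5d, Dusp3, Rpl6, Calm3 or Chmp4b.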

How the results depend on the processing

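The count of 354 genes at 2 years became 1301 with DESeq2 (753 higher, 548 lower), 1337 with all 16 libraries in the fit (699, 638), 688 and 631 on log2 TPM with pseudocounts of 1 and 0.1, 180 after the GC and length trend was removed, 136 with a block for the shared first part of the index (91, 45), and 91 to 464 without 1 library. In DESeq2 and in the 16-library fit 353 of the 354 were called, all in the same direction, and in the trend-removed fit 134. At 42 days DESeq2 called 303 genes and the range without 1 library was 52 to 107. The contrast of ages called 1019 genes with DESeq2 (432, 587) and 64 with the trend removed, and 66 to 656 without 1 library. Isoform use was called in 1082 genes with limma, in 152 with a mean of at least 50 counts, and in 87 to 356 without 1 library; its contrast of ages was called in 1071 by the gene-level F test. Of 65 named genes called, 25 were called the same way in every one of 18 alternatives, 26 lost the call with the trend removed and 26 in the index block. The latter were Dlk1, Ptprm, Chrm3, Ankk1, Foxp2, Kcnk2, Mme, Gng7, Gnb5, Syt4, Cplx2, Sv2a, Syp, Grin1, Grik5, Cacna1i, Scn2b, Uqcrb, Uqcr11, Gpx1, Prdx5, Aldoc, Higd1a, Hspa4, Rps6 and Rplp2 (adjusted p of 0.0529 to 0.195). The cause of these changes was not tested.

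Reversed values were a log2 of 0.38 for Rpl10a and -0.39 for Abce1 with the trend removed, and -0.0445 and -0.00398 for Abce1 without D1 replicate 2 and D2 replicate 1. Without Gm42418 the difference was -4.64 percentage points for protein-coding isoforms and 0.186 for long intergenic RNA. Without 1 library the differences ran from 3.19 to 4.28 points for protein-coding, 1.86 to 2.21 for retained-intron and 0.564 to 0.75 for decay isoforms. They ran from 2.17 to 2.85 for processed, -10.1 to -8.48 for long intergenic and 0.0429 to 0.0903 for antisense isoforms. No adjusted p was computed for these differences. For genes with a count they ran from -3028 to -1918 (-3027.5 to -1917.5), for fragment length -26.9 to -20.5 bases, for Gm42418 -8.43 to -7.20 points, for GC content -1.40 to -1.17 points and for transcript length 45.4 to 121 bases.

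Of 70 list medians compared, 53 kept their sign. With the trend removed 12 changed sign: the median became -0.0895 for dopamine signalling, 0.37 for immediate early genes, 0.38 for glycolysis, 0.12 for genes beside the receptor genes, -0.0421 for the GABA system, 0.0657 for postsynaptic scaffolds, 0.28 for transcription regulators, 0.33 for oligodendrocyte precursors, 0.11 and 0.0093 for small and large ribosomal subunits, 0.21 for the respiratory chain and -0.30 for mitochondrially encoded genes. For matrix markers it kept its sign at 0.20. On log2(TPM + 1) it was -0.34 for markers shared by SPNs, -0.083 for dopamine signalling, -0.51 for sodium and calcium channels, 0.19 for vesicle release, -1.35 for cholinergic markers, 2.54 for glutamatergic markers and -0.37 for glycolysis, on a scale where all genes had a median of -0.31. With a coefficient of variation of 98.4%, changes of a log2 of 1 were rarely called in simulated counts. No paired analysis was possible because the labels share no replicate numbers between the kinds; the index block groups libraries by a shared sequencing index part and is no pairing of animals.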

Other observations

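Genes outside the lists and roles described above were also called at 2 years. Dgkg and Nrg3 were named by size of change, a rule that takes only genes whose values do not overlap between the kinds. Ppig, Zc3h13, Tecr, Bex2 and Palm were named from the contrast of ages by smallest adjusted p, without regard to overlap. Dgkg, a diacylglycerol kinase, was higher in D1 at 122 ± 73.8 TPM against 18.9 ± 10.4 in D2 (SD, n = 4 each; log2 fold change 2.86, edgeR adjusted p = 0.0199). Nrg3, a ligand of the receptor ErbB4, was at 62.1 ± 23.5 TPM in D1 and 10.6 ± 4.34 in D2 (log2 fold change 2.81, adjusted p = 0.00921). Ppig, a cyclophilin of nuclear speckles, was at 203 ± 49.9 TPM in D1 and 50.1 ± 15.5 in D2 (log2 fold change 1.94, adjusted p = 0.00405), against 42.3 and 56.8 TPM at 42 days. Zc3h13, a subunit of the complex that methylates adenosine in mRNA, was at 100.6 ± 22.4 TPM in D1 and 34.1 ± 5.17 in D2 (log2 fold change 1.67, adjusted p = 0.00848). In the direction of D2, Tecr, an enzyme of long fatty acid synthesis, was at 150.5 ± 55.5 TPM in D1 and 717 ± 105 in D2 (log2 fold change -2.17, adjusted p = 0.00414). Bex2, a small brain-expressed X-linked protein, was at 485 ± 201.4 TPM in D1 and 1900.0 ± 157 in D2 (log2 fold change -1.86, adjusted p = 0.00533). Palm, a protein of the inner membrane surface, was at 10.3 ± 6.62 TPM in D1 and 87.9 ± 25.7 in D2 (log2 fold change -3.07, adjusted p = 0.00955). For Ppig, Zc3h13, Tecr, Bex2 and Palm the difference between ages was called as well (adjusted p of 0.00561 to 0.00953). For Ppig and Palm the adjusted p was 0.0556 and 0.0536 after the GC and length trend was removed.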
